A study of Mus musculus with 12 samples.

Results

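The 69 probes described here were selected on their measured values: among the 51691 catalogue probes of a mouse Agilent array (those whose IDs start with A_), they are the ones whose signal was lower at each of 3 successive time points of an induced colon tumour model. The array held 145548 different probes in all, so the members are 0.133% of the catalogue probes. The rule used the log2 values in the authors' deposited table. A probe was kept if its mean over 3 arrays was at least 0.5 lower at 1 week than at 0 weeks, at least 0.5 lower again at 2 weeks, and at least 0.5 lower again at 10 weeks. Its 0-week mean had to be at least 6, and each of its 10-week arrays had to lie below all 0-week and 1-week arrays. Everything reported about the direction and size of these changes therefore describes the choice and is no test of it. The same rule turned round, for catalogue probes that were higher at each step, found 53 probes.

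Total RNA came from colorectal tissue of male C57BL/6 mice and was hybridised with 1 dye (Cy3) to 12 arrays, 3 at each time point. The 0-week mice were untreated and their tissue is labelled normal, although the same samples' source field also carries the words AOM/DSS. The 1-week mice had received azoxymethane (AOM), a carcinogen that alkylates DNA, as 1 injection of 10 mg/kg into the abdomen, and no dextran sulfate sodium (DSS, a polysaccharide that injures the colonic lining). The 2-week mice had received the same AOM injection and then 2% DSS in the drinking water, and the 10-week mice the same agents over 3 DSS cycles. The labels call the 1-week and 2-week tissue colitis and the 10-week tissue tumour. The labels do not tie arrays to animals, so the spread between arrays may be partly technical. The files name no gene for these probes, so neither the tissue label nor the make-up of the cells could be set against marker genes.

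As background, the colonic lining renews itself from stem cells in the crypts, and mature absorptive and mucus-secreting cells take over towards the surface. DSS damages this lining and draws in immune cells, and AOM with repeated DSS gives adenomas in which undifferentiated, dividing cells take up much of the tissue. An array probe is an oligonucleotide that binds 1 labelled transcript or several related ones. In whole tissue, fewer cells of a type and less RNA per cell cannot be told apart.

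Each probe is 60 bases long, and the sequence is what identifies a member here. Those that follow are shown because the results turn on them: 3 members with large differences between 0 and 10 weeks on the measured signals, both pairs of members with near-identical sequence, and both members with a codon pattern of antibody-type variable regions beside a relative from outside the set. Capitals mark the polyadenylation signal AATAAA, the stretch shared by a pair, or the codon pattern. For some probes 30 bases are given. All run 5′ to 3′ as in the scanner files.
A_55_P2110615, whole probe: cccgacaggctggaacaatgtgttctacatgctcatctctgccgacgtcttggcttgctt
A_55_P2350617, bases 31 to 60: tacactggcctcagcAATAAAatataaagc
A_51_P299599, whole probe: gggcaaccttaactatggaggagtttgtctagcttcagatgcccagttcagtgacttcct
A_52_P627269, bases 29 to 58: attTGTCACCTCAGTCTTTGAGCTTTCctg
A_55_P2124712, bases 3 to 32: atcTGTCACCTCAGTCTTTGAGCTTTCatg
A_55_P2005956, bases 18 to 47: tcacattgtcccatgttcttAATAAAgccc
A_55_P2025006, bases 23 to 52: tcacattgtcccatgttcttAATAAAgccc
A_51_P407657, whole probe: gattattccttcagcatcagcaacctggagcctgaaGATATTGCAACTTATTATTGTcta
A_55_P2003915, whole probe: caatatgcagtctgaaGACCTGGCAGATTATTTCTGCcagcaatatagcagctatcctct
A_52_P422297 (no member), whole probe: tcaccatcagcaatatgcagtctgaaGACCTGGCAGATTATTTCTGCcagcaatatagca

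From the scanner files' signals, the median member was 6.03-fold lower at 10 weeks than at 0 weeks, which leaves 16.6% of its 0-week signal, and the differences ran from 2.66-fold to 47.0-fold. In the deposited values the median was 6.78-fold. Because 14 members were not well above background on every 10-week array, the folds were also computed with each array's value raised to the lowest signal well above background on that array. The median was then 5.63-fold, and 58 of the 69 members were at least 4-fold lower and 19 at least 8-fold lower. These folds and all values that follow are based on log2 signals from the scanner files, relative to the 75th percentile of that array, taken over probes that all 12 arrays measured well above background, unless the deposited table is named. On this scale the median change of the members was -0.71 from 0 to 1 week, -0.88 from 1 to 2 weeks, -0.94 from 2 to 10 weeks and -2.59 from 0 to 10 weeks. Over all 62388 probes tested the same medians were -0.01, -0.05, 0.27 and 0.23, and over the 33173 tested catalogue probes they were 0.02, -0.02, 0.06 and 0.10. A probe was tested if it was well above background on at least 3 arrays, and all 69 members passed through their 0-week arrays alone. After normexp background correction, which draws dim signals together, the members' median change from 0 to 10 weeks was -1.61.

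The total fall on the measured signals was spread over the 3 steps. By median, 29.0% of a member's log2 fall lay between 0 and 1 week, when AOM alone had been given, 33.9% between 1 and 2 weeks, when DSS was first given, and 35.3% between 2 and 10 weeks. For 35 members the last step was the largest, for 26 the DSS step and for 8 the AOM step. This split depends on the scaling: in the deposited values the last step was the largest for 52 members, the DSS step for 11 and the AOM step for 6. On the scale used here, members whose last step was the largest had a median total change of -2.80, against -2.40 for those with the largest change at the DSS step and -2.14 for those with the largest at the AOM step. In the 8 members led by the AOM step the median change was -0.89 by 1 week, then -0.71 and -0.63.

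On the scale used here, the members' arrays of neighbouring time points did not separate equally well. Steps of at least 0.5, which the rule asked for, favour separate arrays, and the shares over all probes were not computed. The counts of separate arrays therefore describe the choice. All 3 arrays at 1 week lay below all 3 at 0 weeks for 57 members, the 2-week arrays below all 1-week arrays for 44, and the 10-week arrays below all 2-week arrays for 22. The median tested probe was 0.27 higher at 10 than at 2 weeks on this scale, and separation in the deposited values was not counted. For 11 members no array overlapped at any step, 6 of them among the 20 with the largest falls. At 2 weeks all arrays of all 69 members lay below their 0-week arrays, an order that the rule did not ask for but that 2 steps of 0.5 favour. One member, A_55_P2730411, overlapped at all 3 steps. The spread within a time point was wider late than early: the median SD over members (n = 3 arrays each) was 0.22 in untreated tissue, 0.28 after AOM, 0.57 after DSS and 0.61 in tumour tissue.

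In a fit of the 4 group means to all tested probes (limma, Benjamini-Hochberg adjusted p below 0.05), 0 of 69 members were called lower at 1 week against 0 weeks, where 0.276% of all tested probes were. At an unadjusted limma p below 0.05 there were 27 members, beside 5357 of all 62388 probes. Limma called 13 members after normexp background correction, 1 with slide as a random block and 1 of 54 when a probe had to be well above background on all arrays. Over all probes those calls were 709, 478 and, of 42343 probes, 354. The lowest adjusted p of limma among the members in that comparison was 0.0624, for A_51_P196726. Between 1 and 2 weeks limma called 1 member lower, A_55_P1963639 (adjusted p = 0.0213), against 0.442% of all probes, and 0 members without the filter on dim probes or with these groups fitted alone. Over all probes those last settings called 115 of 145548 and 69 of 62388. At an unadjusted limma p below 0.05 there were 39 members, beside 4900 of all 62388 probes. Between 2 and 10 weeks it called 26 members lower, against 7.56% of all probes, and between 0 and 10 weeks all 69, against 10.4%. The count for 2 to 10 weeks moved with the processing: it was 53 with the percentile over all probes, 43 after quantile normalization, 42 on the deposited values, 34 after normexp correction and 15 without the filter. The calls over all probes moved as well. In the same order they were 13816, 7026, 6974 and 7553 of 62388, and 3737 of 145548 without the filter, beside 4717 in the main fit. The rule used each of these contrasts, so the counts are descriptions and the background shares are given only for reference. The standard error of a difference between 2 time points had a median of 0.36 over the members and ran from 0.19 to 0.69, so a step of 0.5 was below 2 standard errors for most members.

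The member with the largest fall was A_55_P2110615. It read 4.63, 4.06 and 3.63 in untreated tissue, 2.05, 2.61 and 0.52 after AOM, -0.54, 1.38 and -0.80 after the first DSS course, and -1.40, -1.73 and -1.22 in tumour tissue, always in the order of replicates 1 to 3. Its untreated and AOM arrays did not overlap, its AOM and DSS arrays did, and all 10-week arrays were the lowest. The change from 0 to 10 weeks was -5.55 (SE 0.61), or 47.0-fold lower, and 42.9% of it lay in the AOM step. Its printed sequence holds no stop codon in any of the 3 sense frames.

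A_55_P2350617 came next. Its arrays read 0.62, -0.18 and -0.50 in untreated tissue, -2.07, -1.26 and -3.01 after AOM, and -4.74, -2.28 and -4.18 after the first DSS course. At 10 weeks they read -5.42, -5.45 and -5.23, and none of these 3 was well above background. The 10-week level is therefore a bound, and the signal was at least 34.9-fold lower than at 0 weeks (mean of the 3 arrays, each at the higher of its own value and the lowest signal well above background). Again replicate 2 was the highest array at 1 and at 2 weeks. Its sequence carries the polyadenylation signal shown above.

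In A_51_P299599 no array overlapped at any step on the measured signals. It read -1.89, -2.15 and -1.75 in untreated tissue, -2.73, -2.63 and -2.76 after AOM, -3.62, -3.45 and -4.51 after the first DSS course, and -5.82, -5.88 and -6.36 in tumour tissue. None of its 10-week arrays was well above background, so it was at least 9.28-fold lower there. At that bound 24.3% of its log2 fall lay in the AOM step and 39.8% between 2 and 10 weeks. Its place among the largest falls rests on signals below background: at the bound it ranked 15 of 69. After normexp correction its change from 0 to 10 weeks was -1.56 in place of -4.09. A_51_P367240, at least 4.65-fold lower, and A_51_P419637, at least 4.68-fold lower, were the other 2 members that no 10-week array measured above background. Another 10 members were well above background on 1 or 2 of the 10-week arrays, and 55 on all 3.

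Further strongly reduced members kept a signal well above background throughout. A_55_P1963639, the 1 member called lower in the DSS step, read 7.46, 7.40 and 7.24 in untreated tissue and 6.38, 6.64 and 6.54 after AOM. It then read 3.24, 5.04 and 4.60 after the first DSS course and 3.48, 2.85 and 3.75 in tumour tissue. The untreated and AOM arrays were tight and apart, and replicate 1 after DSS overlapped the tumour arrays. The DSS step of this probe was -2.22 (SE 0.39) and its total change -4.01, or 16.1-fold.

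A_51_P495560 read 6.34, 5.80 and 5.52 in untreated tissue, 4.59, 5.31 and 4.81 after AOM, 3.12, 4.61 and 2.68 after the first DSS course, and 2.07, 1.03 and 2.60 in tumour tissue. Replicate 2 at 2 weeks overlapped the lowest 1-week array by a small margin, and the other steps showed no overlap. Together with A_55_P2110615, A_55_P2350617 and A_66_P121695 it was 1 of 4 members with each step at least 1 in the deposited values. A_66_P121695 read -0.40, -0.86 and -0.60 in untreated tissue, -2.07, -1.30 and -1.66 after AOM, -3.51, -2.12 and -3.48 after the first DSS course, and -3.97, -4.27 and -3.61 in tumour tissue, with no overlap at any step. It ended 10.0-fold lower.

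For some members 1 array at 10 weeks stood far below the other two. A_55_P2742406 read 4.86, 4.15 and 4.25 in untreated tissue, 3.55, 4.22 and 3.69 after AOM, 3.03, 3.52 and 2.55 after the first DSS course, and 1.23, -1.39 and 1.74 in tumour tissue. A_51_P114722 read 1.68, 1.04 and 1.19, then 0.43, 0.79 and 0.40, then -1.32, -0.06 and 0.03, and at 10 weeks -1.64, -4.56 and -1.52. In both, replicate 2 at 10 weeks lay over 2 log2 units below the other arrays of its group. Their total changes were -3.90 (SE 0.64) and -3.87 (SE 0.68), among the widest errors of the set.

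Other members fell more evenly or with less scatter. A_51_P473259 read 0.29, 0.09 and 0.27 in untreated tissue, -0.77, -0.40 and -0.74 after AOM, -2.42, -1.49 and -1.23 after the first DSS course, and -3.46, -3.98 and -2.76 in tumour tissue, with no overlap. A_51_P301998 read 0.49, 0.58 and -0.15, then -0.64, 0.07 and -0.67, then -1.36, -1.21 and -1.40, and finally -3.84, -3.11 and -2.69. Here the untreated and AOM arrays overlapped, and both later steps showed no overlap. The totals were 12.2-fold and 11.4-fold.

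A_51_P196726 had 49.9% of its fall in the AOM step. It read -1.12, -1.51 and -1.64 in untreated tissue and -3.34, -2.63 and -3.16 after AOM without overlap. The later arrays read -4.26, -3.19 and -4.54 after the first DSS course and -5.18, -4.65 and -4.19 in tumour tissue and overlapped each other, and the 2-week arrays also overlapped those at 1 week. A_55_P2745433 and A_51_P496253 had 35.7% and 37.4% of their fall in that step and ended 10.4-fold lower each.

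For dim members the last step could not be sized. A_52_P13921 read -1.69, -2.65 and -2.17 in untreated tissue, -3.67, -3.21 and -3.74 after AOM, -5.82, -4.21 and -5.73 after the first DSS course, and -5.37, -6.82 and -4.12 in tumour tissue. In the last pair of groups 1 array of 3 was well above background, and the arrays overlapped. Its deposited values had a last step of 0.79. In A_55_P2799178, which was well above background on all arrays, the last step was -0.02, while in the deposited values every step of every member is at least 0.5. The median tested probe was 0.27 higher at 10 than at 2 weeks on the scale used here and 0.0089 higher in the deposited table. The members' median last step was -0.94 on the first and -1.25 on the second.

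A_52_P273891 and A_52_P185162, well above background on all arrays, ended 10.0-fold and 8.96-fold lower, with 52.4% and 18.9% of the fall in the last step. A_55_P2006499 read 11.3-fold lower on signals that were well above background on 1 array of 3 at 2 weeks and at 10 weeks. With its dim arrays raised to the lowest signal well above background it was 4.70-fold lower, and its change after normexp correction was -1.01. A_52_P13921, treated the same way, was 6.16-fold lower.

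Both near-identical pairs ran in parallel, and their members may bind the same transcripts, so they are not separate observations. A_52_P627269 and A_55_P2124712 share 24 bases without a break and 31 of 34 aligned bases. A_52_P627269 read 3.70, 3.62 and 3.94 in untreated tissue, 3.05, 3.40 and 2.62 after AOM, 1.41, 2.21 and 2.21 after the first DSS course, and 0.63, -0.60 and 1.36 in tumour tissue. A_55_P2124712 read 4.21, 4.11 and 4.28, then 3.49, 3.99 and 3.24, then 1.93, 2.77 and 2.73, and finally 1.25, -0.17 and 1.99. The order of the 3 arrays was the same in both probes at each time point, with replicate 2 the lowest at 10 weeks. Their total changes were -3.29 (SE 0.42) and -3.18 (SE 0.45).

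A_55_P2005956 and A_55_P2025006 share 55 of their 60 bases. A_55_P2005956 read 5.08, 5.35 and 4.99 in untreated tissue, 4.62, 4.94 and 4.23 after AOM, 2.99, 4.01 and 4.06 after the first DSS course, and 2.16, 1.31 and 3.58 in tumour tissue. A_55_P2025006 read 4.78, 5.17 and 4.90, then 4.41, 4.71 and 3.99, then 2.75, 3.70 and 3.79, and finally 1.95, 1.15 and 3.48. From 1 week on the order of the arrays was the same in both, with replicate 3 the highest at 10 weeks. The catalogue probe A_55_P2002933 matched A_55_P2005956 at 54 of 59 aligned bases and changed by -0.38, -0.94 and -1.37 over the 3 steps, and it is no member. A further relative, A_55_P1984760, with 51 of 57 bases, was well above background on 1 array at 0 weeks and on none later.

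Near-identical here means at least 85% identical bases over an ungapped alignment of at least 30. By that measure 63 of the 69 members had no relative among the 145548 probes, 4 members had 1 or more catalogue relatives outside the set, 5 probes in all, and none had a relative among the custom-design probes.

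Members A_51_P407657 and A_55_P2003915 were singled out after their sequences had been read. Each holds the pattern GANNTNGCNNNNTANTNNTGN in the sense direction, which spells codons for aspartate, alanine, tyrosine and cysteine in the spacing found near the end of the framework of antibody and T cell receptor variable domains, the parts of those receptors that bind antigen. Among all catalogue probes 14 of 51691 (0.0271%) hold it in the sense direction and 1 in the antisense direction, and among the members 2 of 69 (2.90%) in the sense direction and 0 in the antisense. Of the tested catalogue probes, 13 of 33173 (0.0392%) hold it in the sense direction. Because the pattern was taken up after these 2 members had been read, their share describes that choice and is no test. A match describes these letters and names no gene.

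A_51_P407657 read 2.58, 0.86 and 1.26 in untreated tissue, 1.00, 0.59 and 0.27 after AOM, 0.08, -1.01 and -0.51 after the first DSS course, and -0.09, -0.98 and -2.28 in tumour tissue. A_55_P2003915 read -1.03, 0.02 and 0.09, then -1.44, -0.16 and -1.82, then -2.93, -2.02 and -2.47, and finally -1.74, -1.77 and -4.46. In both, replicate 3 at 10 weeks was the lowest of its group by over 1, the opposite of most members, and A_55_P2003915 overlapped between 1 and 10 weeks on this scale. The probe A_52_P422297, which shares 50 bases with A_55_P2003915, changed by -0.68, -0.85 and -0.20 over the steps and by -1.72 in all. The SDs of its 4 groups were 1.85, 1.51, 0.97 and 1.94 (n = 3 each), so each step was smaller than the spread between its arrays. A_55_P2087429, with 55 of 60 bases identical to A_55_P2003915, changed by 0.39 from 0 to 1 week and by -2.05 in all. A_66_P132428, which shares 26 bases with A_55_P2003915, was 1.03 higher at 10 than at 0 weeks. That difference was smaller than the spread between its arrays, with SDs of 1.70 at 0 weeks and 1.88 at 10 weeks. It was well above background on 2 of 3 arrays at each of these times. A_55_P2186942, identical to A_51_P407657 at 35 of 40 aligned bases, changed by -0.05, -1.68 and 0.80 over the steps and by -0.92 in all.

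The members shared other features of sequence only in part. The signal AATAAA was found in the sense direction in 11 of 69 members (15.9%), against 10.3% of all catalogue probes and 9.50% of the tested ones. It was found in the antisense direction in 3 members (4.35%), against 3.96% of all catalogue probes. The AU-rich pentamer ATTTA, a letter run common in short-lived messenger RNAs, was in 7 members in the sense direction (10.1%, against 8.27% of all catalogue probes) and in 5 in the antisense direction (7.25%, against 10.3%). Its antisense letters, TAAAT, overlap AATAAA where a T follows that signal. The median GC content was 40.0% in the members, 41.7% in all catalogue probes and 45.0% in the tested ones. Of the 11 members with AATAAA, 8 had their largest change in the last step on the scale used here, as did 35 of all 69 members. In the deposited values the last step was the largest for each of the 11 members with AATAAA and for 52 of all 69 members. Among those 8 are A_55_P2005956 and A_55_P2025006, which share the signal within 55 common bases and are not separate observations.

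Within a time point many members shifted together from array to array, while the median tested catalogue probe hardly shifted. At 2 weeks, replicate 1 was the lowest of the 3 arrays for 51 of 69 members and replicate 2 the highest for 50. At 10 weeks, replicate 2 was the lowest for 42 and replicate 3 the highest for 57. Among all tested catalogue probes, replicate 1 was the lowest at 2 weeks for 39.5% and replicate 2 the highest for 33.9%. At 10 weeks replicate 1 was the lowest for 40.0%, replicate 2 for 33.8% and replicate 3 for 26.2%, and replicate 3 was the highest for 33.6%. The median deviation of the members from their group means was -0.51 in replicate 1, 0.40 in replicate 2 and 0.08 in replicate 3 at 2 weeks. At 10 weeks it was -0.06, -0.34 and 0.53. The tested catalogue probes had medians between -0.07 and 0.05 on each of the 12 arrays.

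At 0 weeks replicate 1 was the highest for 44 members, and at 1 week replicate 2 was the highest for 49 and replicate 3 the lowest for 42. Among the tested catalogue probes these shares were 31.6%, 38.3% and 25.5%; there replicate 3 was most often the highest at 0 weeks (42.8%) and replicate 1 most often the lowest at 1 week (43.0%). The shifts there were smaller, with median deviations of 0.16, -0.12 and -0.02 at 0 weeks and -0.07, 0.24 and -0.14 after AOM. At 2 weeks replicate 1 stood at least 1 log2 unit below both other arrays for 12 members and replicate 2 at least 1 above both for 9. At 10 weeks replicate 2 stood at least 1 below both for 10 members and replicate 3 at least 1 above both for 8. The shares over all tested probes were not computed for these counts of arrays standing apart. The counts therefore describe the members only and do not set them off from other probes.

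Membership depended on single arrays. Without replicate 1 at 2 weeks the rule found 44 probes, 42 of them members, and without replicate 2 at 2 weeks it found 80, of which 57 were members. Leaving out any 1 of the 12 arrays gave between 44 and 80 probes, with 42 to 67 of the members among them. The median change from 1 to 2 weeks was -0.63 without replicate 1 at 2 weeks and -1.07 without replicate 2. For 2 weeks against 1 week limma called 7 members lower without replicate 2 at 2 weeks, 1 without replicate 1 there, and 0 without replicate 3 there or without any 1 of the 1-week arrays. Over all 62388 probes it called 599, 147 and 113 without replicates 2, 1 and 3 at 2 weeks, beside 276 with all arrays. Without 1 of the 1-week arrays it called 88 to 271. For 10 against 2 weeks it called 11 members lower without replicate 2 at 2 weeks or without replicate 2 at 10 weeks, 12 when these 2 groups alone were fitted, 13 without replicate 3 at 2 weeks, 14 without replicate 1 at 10 weeks, 35 without replicate 1 at 2 weeks and 38 without replicate 3 at 10 weeks, beside 26 with all arrays. In the same order the calls over all probes were 3273, 3021, 3851, 2538, 3173, 3793 and 4175, beside 4717 with all arrays. For 10 against 0 weeks limma called 67 to 69 members under each array left out, beside 4563 to 5725 of all probes.

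Each of the 6 slides held arrays of 1 time point, and the 10-week arrays shared 1 slide and a scan day of their own. For 10 weeks, slide, scan day and time point cannot be told apart. The 2-week arrays also shared 1 slide, and the 0-week and 1-week arrays lay on 2 slides each, all 9 scanned on 1 day. The correlation within slides, estimated with slides nested in time points, was -0.0893, and a negative value narrows the errors of differences between groups. With slide as a random block on that estimate limma called 1 member lower at 1 week, 4 between 1 and 2 weeks, 40 between 2 and 10 weeks and 69 between 0 and 10 weeks. Over all 62388 probes it called 478, 628, 6216 and 7621 in the same order.

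The lower limit of 0.5 per step runs through a dense range of probes. Just inside it were A_66_P104630, with deposited means of 10.8, 10.3, 9.67 and 7.97 at the 4 times and a smallest step of 0.501, and A_52_P655803, with 11.4, 10.9, 10.4 and 9.48 and a smallest step of 0.505. Just outside were A_52_P64356, with 12.7, 12.1, 11.6 and 10.8 and a step of 0.493 in the DSS week, and A_65_P19862, with 9.87, 9.38, 8.50 and 7.31 and a step of 0.489 in the AOM week. In all, 490 catalogue probes met every other condition and missed on 1 step alone, 253 on the AOM step, 223 on the DSS step and 14 on the last. With steps of at least 0.25 the rule would take 349 probes.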

How the data were processed

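Scanner files and 1 table of log2 values were deposited by the authors for 12 arrays. Per the file headers, Agilent Feature Extraction 10.7.1.1 made the spot intensity values: the deposited processed signal is background-subtracted and detrended, and the mean signal and local background are raw. How the authors normalized the log2 table is not given in the sources used here; its columns share 1 set of quantiles (median 2.92), and each correlated at 0.995 or more with the log2 processed signal of its array.

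Control spots and flagged spots were left out and spots of a probe averaged; no member had a flagged or saturated spot, and each had 1 spot. Log2 processed signals were scaled to the 75th percentile of each array, taken over 42343 probes that every array measured well above background. Between 33.3% and 44.4% of probes were well above background per array. Group means were fitted with limma 3.58.1 in R 4.3.3, with Benjamini-Hochberg adjustment over 62388 probes; the script was tested on simulated data. Sequence work used Python 3.11.15. The 3 arrays per group limit the precision. Named were the 20 members with the largest fall, the nearest to the threshold, and, chosen after their values were seen, the pairs, the codon pattern probes and exceptions counted in the text. The gene lists fixed for the report could not be used, because no table given pairs probes with genes. Alternatives were other scalings, normexp (offset 50), the deposited table, other filters, blocks and leaving out arrays. The members and lists were chosen with earlier results of these data known.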

Additional observations from a re-analysis of the deposited data

How the results depend on the processing

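Over all tested probes, the counts called lower by limma were 172 (1 week against 0), 276 (2 against 1), 4717 (10 against 2) and 6477 (10 against 0). In the same order they were 709, 181, 7553 and 10080 after normexp correction. With the percentile over all probes 13816 and 13364 were called lower in the last pair of comparisons, where the median of all tested probes for 10 against 0 weeks moved from 0.23 to -0.12. For the first pair the counts were 63 and 115 with no filter, 478 and 628 with slide as a random block, and 6 and 69 with only the compared groups fitted; the first was 354 over the probes that every array measured above background. Leaving out 1 array gave 5 (without 0-week replicate 1) to 354 (without 1-week replicate 1), 88 (without 1-week replicate 3) to 599 (without 2-week replicate 2), 2538 (without 2-week replicate 3) to 4175, and 4563 to 5725. The rule found 24 probes on normexp values, 349 with steps of 0.25, 4 with steps of 1, and 44 to 80 without 1 array, against 69. The members' median change from 0 to 10 weeks was -1.61 after normexp, against -2.59, and -2.37 to -2.73 without 1 array. Of 270 values of 27 named probes under other settings, 20 moved by more than the SD between arrays and 0 changed sign. All 20 came from other scalings, normexp or the deposited table, most of them from normexp. Leaving out 1 of 3 arrays cannot shift a group mean by that SD, so those values could not count as moved. The rule itself favours an unchanged sign. The causes were not tested.

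With the replicate number as a block, 79, 168, 4408 and 6260 probes and 0, 1, 22 and 69 members were called lower. Deviations of arrays with the same number correlated at -0.0988 to 0.191, so the numbers were not taken to pair the samples. The counts of members called under each setting were added after the data were seen. Dim probes limit the late values: 14 of 69 members were not well above background on every 10-week array.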

Other observations

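The 13 tested catalogue probes with the variable-region codon pattern, 2 of them members, were all lower at 2 weeks than at 1 week, by -0.47 to -2.73 with a median of -1.53. The list was made after the members' sequences had been read, so no test is given. The rule fixed this direction for both members, and 3 others are near-identical to a member. The 8 probes that are neither were also lower at 2 weeks (median -1.53), 6 of them were lower at 10 than at 0 weeks, and 1 was lower at each successive time. A_66_P132428, among these 8, shares 26 bases with the member A_55_P2003915. Whether the 8 resemble each other was not checked, so they may not be separate observations. The share of all tested probes lower at 2 than at 1 week was not computed. The median tested catalogue probe changed by -0.02 in that step. Before DSS the 13 probes went both ways: 5 were lower and 8 higher at 1 week than at 0 weeks, from -0.95 to 1.65. Between 2 and 10 weeks 7 were lower and 6 higher, from -1.51 to 1.56. Only 4 of the 13 were lower at each successive time, both members, A_52_P422297 and A_55_P1961616. Against 0 weeks, 11 of 13 were lower at 10 weeks, with a median of -1.32. The highest was A_55_P2132532, which read 1.68 above its 0-week mean, and the lowest was A_55_P2072995, at -3.22. The 10-week mean of A_55_P2072995 was -5.87. The lowest signals well above background on the 10-week arrays were -5.17 to -5.10. Its -3.22, and its -1.51 between 2 and 10 weeks, therefore rest partly on signals below background.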
